A study of Mus musculus with 12 samples.

Results

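The genes described here carry glucose through glycolysis to pyruvate and lactate, move glucose and lactate across the plasma membrane, or respond to low oxygen. Of the 35 genes listed, 33 were measured, with 60 of the 41230 array features that had a value and among 19087 named genes in all. A feature counted for a gene where its probe annotation named that gene by its current symbol or an older one. No feature was annotated to Gpi1 or Eno1, which therefore count as not measured, while 9483 features with a value had no gene named. Of the measured genes, 16 had 1 feature and 17 had 2 or more, and features of 1 gene were averaged into a gene value.

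Glycolysis splits glucose into pyruvate, with hexokinase and phosphofructokinase as its main regulated steps. Lactate dehydrogenase turns pyruvate into lactate, monocarboxylate transporters carry lactate out of or into the cell, and pyruvate dehydrogenase kinases hold pyruvate back from the mitochondria. In low oxygen the factor HIF-1 escapes the prolyl hydroxylases that mark it for destruction and induces many glycolytic genes along with Vegfa, Car9, Adm and others. Oligodendrocytes are known for a glycolytic metabolism and for the transporter MCT1 (Slc16a1), through which they can supply lactate to axons.

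The cells were Oli-neu, a mouse oligodendroglial line, stably expressing PLP-EGFP, a myelin protein fused to a fluorescent protein. In the first experiment cells under neuron treatment, described in the methods of the study as 16 h in conditioned neuronal medium, were set against untreated parallel cultures, and in the second experiment cells treated with Y27631 (spelled Y27632 in the paper) for 16 h were set against untreated parallel cultures. Each experiment had 6 arrays, with treated and untreated RNA on the same array, the treated RNA in the dye Cy3 on 3 arrays and in Cy5 on the other 3. The submitters' design text speaks of neurons being present, also in the control of the second experiment, while the channel labels call that control untreated. It also calls the 6 arrays technical replicates, and nothing used here says that arrays came from separate cultures, so every p-value reflects array-to-array variation that may be technical only. The RNA was bulk RNA of a culture, in which fewer cells of a type and less RNA per cell cannot be told apart.

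Values are standardized log ratios, turned to treated over untreated and given in SD units: 1 unit is 1 standard deviation of all features on an array. The base of the logarithm and the scaling are not known, so the values are not folds, and they hold no level of a gene in either RNA. The sign rests on 15 genes listed by the study as induced by both treatments. For each, the feature with the largest absolute mean under neuron treatment was taken. All 15 were below 0 as deposited in each treatment and dye orientation. The sign is therefore no independent evidence of direction. Arrays of the same dye orientation correlated at 0.859 to 0.890 (neuron treatment) and 0.731 to 0.809 (Y27631) over all features with a value. Between opposite orientations the correlations were 0.249 to 0.296 and -0.262 to -0.120, so that in the Y27631 experiment arrays of opposite orientation ran against each other. The means of both orientations are therefore given beside many of the results below, and the plots show every array. Of 8 oligodendroglial markers measured, 6 rose and 2 fell (Mbp and Erbb2) under neuron treatment, and 6 rose and 1 fell (Erbb2) with Y27631. These were 75% and 25%, and 75% and 12.5%, beside 27.6% and 36.7%, and 20.5% and 19.5% of all genes.

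Promoters of 5 members are shown as examples, to place the letters that HIF-1 is known to bind. Each of the 5 moved the same way on every array of at least 1 experiment. So did Hk1, Pfkl, Pfkp, Pfkfb3, Aldoa, Adm, Egln3 and Vegfa, whose promoters are not shown. The windows run from 250 bases before to 50 bases after a start given for the gene in RefSeq (GRCm38.p6), and 33 of the 35 listed genes had one. For Slc16a3 and P4ha1 the start used lies inside the gene, past its outermost start. The core letters ACGTG and GCGTG were searched on both strands, and capitals mark each match, with neighbouring matches joined where they overlap. Slc16a1 lies at chr3:104638414-104638713 on the plus strand, Slc16a3 at chr11:120948817-120949116 on the plus strand, Eno2 at chr6:124769624-124769923 on the minus strand, P4ha1 at chr10:59323046-59323345 on the plus strand and Car9 at chr4:43506776-43507075 on the plus strand.
Slc16a1: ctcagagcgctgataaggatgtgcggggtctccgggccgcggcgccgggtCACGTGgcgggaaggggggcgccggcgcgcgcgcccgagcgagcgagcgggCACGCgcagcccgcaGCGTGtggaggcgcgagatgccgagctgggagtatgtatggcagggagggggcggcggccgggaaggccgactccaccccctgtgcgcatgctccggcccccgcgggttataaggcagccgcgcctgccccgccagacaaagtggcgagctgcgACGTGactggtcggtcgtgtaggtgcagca
Slc16a3: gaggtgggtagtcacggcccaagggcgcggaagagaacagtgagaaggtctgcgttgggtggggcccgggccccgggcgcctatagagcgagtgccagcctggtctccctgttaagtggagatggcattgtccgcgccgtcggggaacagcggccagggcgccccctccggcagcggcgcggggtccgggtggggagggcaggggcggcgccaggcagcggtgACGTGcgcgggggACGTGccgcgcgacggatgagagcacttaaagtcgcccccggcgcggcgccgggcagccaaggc
Eno2: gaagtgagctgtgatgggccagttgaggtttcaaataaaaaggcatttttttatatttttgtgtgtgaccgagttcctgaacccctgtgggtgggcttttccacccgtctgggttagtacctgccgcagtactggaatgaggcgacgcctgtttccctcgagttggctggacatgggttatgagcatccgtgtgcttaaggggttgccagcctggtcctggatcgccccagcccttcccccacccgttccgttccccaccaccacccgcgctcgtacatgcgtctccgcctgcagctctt
P4ha1: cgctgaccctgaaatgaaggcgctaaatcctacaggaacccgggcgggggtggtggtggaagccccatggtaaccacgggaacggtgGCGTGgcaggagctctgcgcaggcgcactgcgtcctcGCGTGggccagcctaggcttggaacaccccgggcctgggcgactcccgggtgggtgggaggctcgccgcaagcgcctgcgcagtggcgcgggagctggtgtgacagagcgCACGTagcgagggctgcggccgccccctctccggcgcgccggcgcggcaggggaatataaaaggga
Car9: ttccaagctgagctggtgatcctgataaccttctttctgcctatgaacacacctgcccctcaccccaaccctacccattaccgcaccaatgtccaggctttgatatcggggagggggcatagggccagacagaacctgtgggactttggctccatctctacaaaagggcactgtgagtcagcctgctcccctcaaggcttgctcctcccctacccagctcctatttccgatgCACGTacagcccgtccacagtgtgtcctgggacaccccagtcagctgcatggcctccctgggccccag
Slc16a3 held 2 matches, both of ACGTG close before the start used for its window, and Slc16a1 held 5, among them a CACGTG read on both strands. Eno2 held none in this window. ACGTG occurred in 19.6% and GCGTG in 32.4% of all 32851 windows of this length, and either one in 43.8%. Among the listed genes either one occurred in at least 1 window of 30 of 33 genes (90.9%), against 46.7% of 27025 genes. Many of these genes were listed because they are known HIF-1 targets, and a match is not a binding site.

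Under neuron treatment the lactate transporter Slc16a3 and the enolase Eno2 rose furthest among the measured members. Slc16a1, P4ha1 and Pfkl fell by over 1 SD unit in the mean, with all 6 arrays below 0. Ldha fell as far in the mean, but only with the treated RNA in Cy5, and its call was lost with no dye term (adjusted p = 0.057). By adjusted p (limma's moderated test, Benjamini-Hochberg over 19087 genes) 7 of 33 members rose, or 21.2%, against 27.6% of all genes, and 13 fell, or 39.4%, against 36.7%. Both shares were near those of all genes, and the median of the members, -0.14 SD units, stood beside -0.075 for all genes. The counts are therefore no result about the members as a set, and what follows concerns single genes.

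A stricter reading asks for the same sign on all 6 arrays. Eno2 and Slc16a3 rose in this sense (6.06% of members, against 16.1% of all genes), and 8 members fell, namely Hk1, Pfkl, Pfkp, Pfkfb3, Aldoa, Slc16a1, Adm and P4ha1 (24.2%, against 17.8%). At 1 SD unit or more 6 members passed, or 18.2%, against 10.2% of all genes. A fit with no dye term, in which the gap between the orientations counts as spread, called the same 2 members higher and the same 8 lower, against 14.9% and 16.4% of all genes.

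With Y27631 no member reached 1 SD unit, against 5.87% of all genes that passed at that size, and the farthest was Car9 at 0.97. Called at any size, 10 members rose, or 30.3%, against 20.5% of all genes, and 6 fell, or 18.2%, against 19.5%. The members' median was -0.057 SD units, beside -0.013 for all genes. In 9 of these 16 calls the means of the dye orientations had opposite signs, as they had in 5 of the 20 calls under neuron treatment. With the same sign on all 6 arrays, Egln3 and Car9 rose (6.06%, against 10.2%) and Pfkp, Pfkfb3, Slc16a1 and Vegfa fell (12.1%, against 9.23%). With no dye term Car9 remained as the 1 member called higher, against 6.46% of all genes, and Pfkp and Slc16a1 as the 2 called lower, against 5.58%. Slc16a1, Slc16a3, Eno2, Pfkl, Ldha and P4ha1 met the size rule for a full account, and other members singled out below were chosen after their values were seen.

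**Figure D1:**
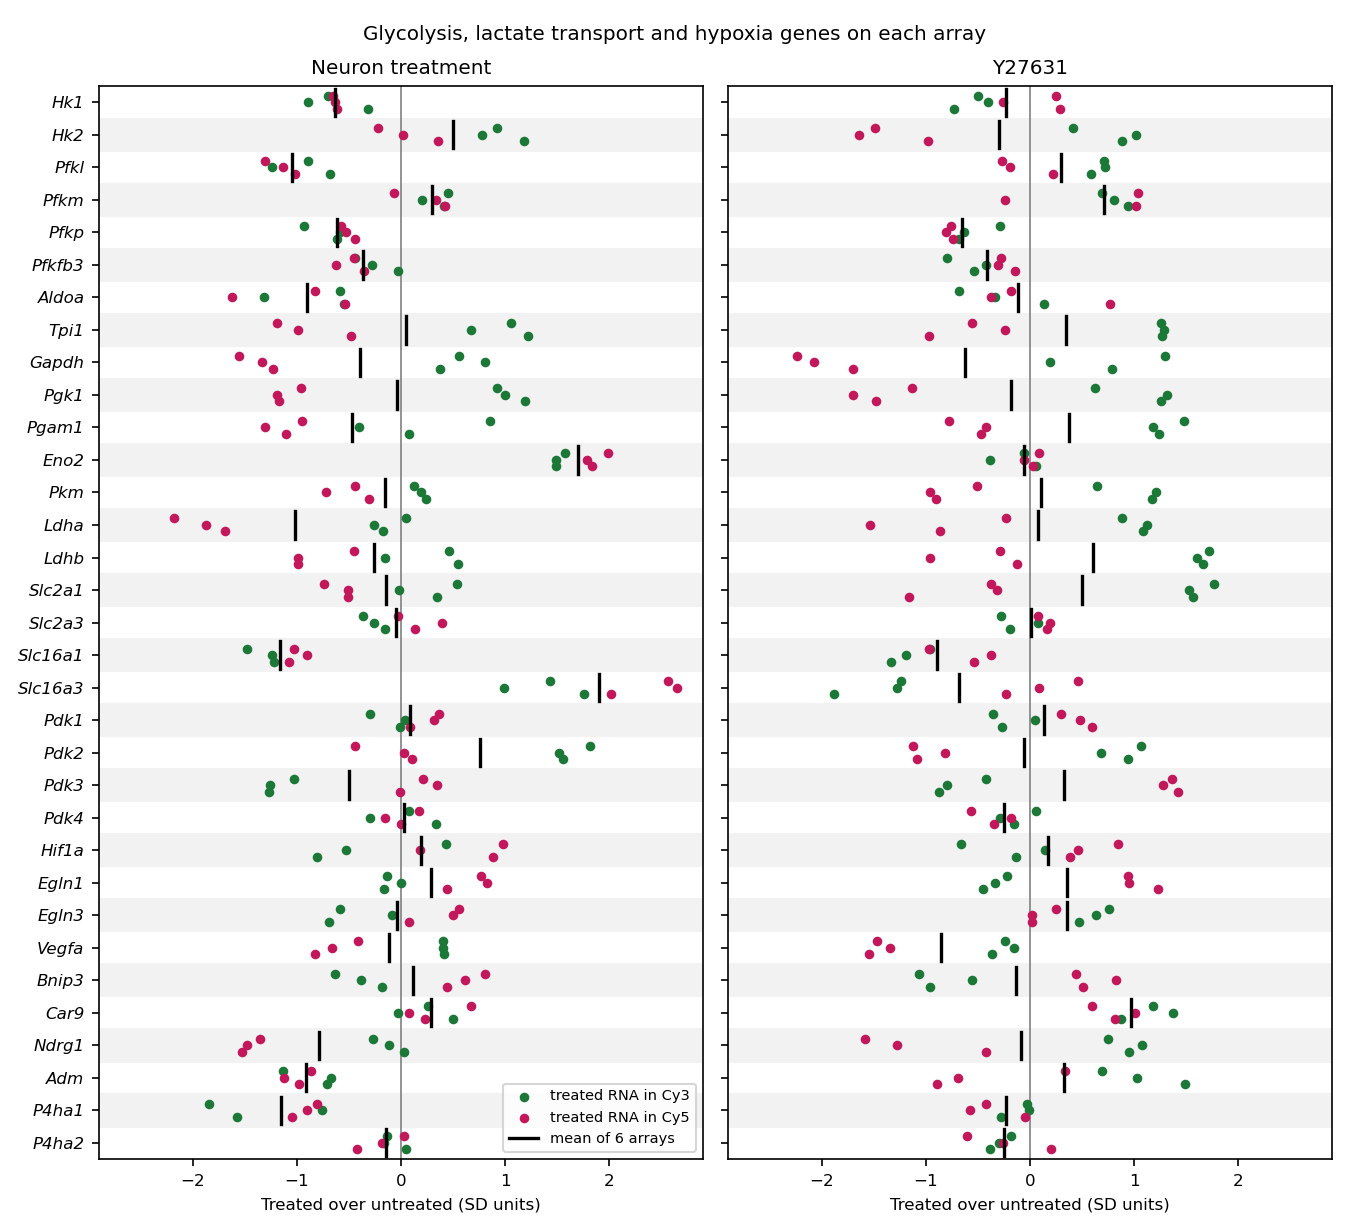
Treated over untreated (SD units, x axis) of the 33 measured members (rows) on each array, under neuron treatment (left) and with Y27631 (right). Points are single arrays coloured by the dye of the treated RNA and black bars are means of 6 arrays. All 6 arrays lie above 0 for Eno2 and Slc16a3 under neuron treatment, while Pgk1, Gapdh and Tpi1 split by dye in both experiments.

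Among the transporters, those of lactate moved in opposite directions under neuron treatment. Slc16a3 encodes MCT4, the monocarboxylate transporter known for lactate export from glycolytic cells. Its 1 feature ran from 0.99 to 2.65 SD units over the 6 arrays with a median of 1.89. Every array was above 0, the lower values with the treated RNA in Cy3 (mean 1.39) and the higher ones in Cy5 (mean 2.41). The mean was 1.90 ± 0.65 (SD, n = 6 arrays, adjusted p = 2.0e-06), which ranked 241 from the top of 19087 genes. The exact sign-flip permutation test (two-sided) gave p = 0.0312, the smallest that 6 arrays allow.

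With Y27631 the same feature of Slc16a3 ran from -1.88 to 0.46 with a median of -0.73. The 3 arrays with the treated RNA in Cy3 lay low (mean -1.47) and those in Cy5 lay around 0 (mean 0.11). The mean of -0.68 ± 0.92 (SD, n = 6 arrays) passed limma's test with the dye term (adjusted p = 0.0036) and not without it (adjusted p = 0.23). The exact sign-flip permutation test gave p = 0.188. The direction of Slc16a3 with Y27631 thus rests on a single dye orientation.

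Slc16a1, which encodes MCT1, stood below 0 on every array of both experiments. Under neuron treatment it ran from -1.48 to -0.90 with a median of -1.15, and the mean was -1.16 ± 0.20 (SD, n = 6 arrays, adjusted p = 1.6e-06). With Y27631 it ran from -1.34 to -0.38 with a median of -0.97, and the mean was -0.90 ± 0.37 (SD, n = 6 arrays, adjusted p = 0.00037). Both sets of arrays lay wholly on the negative side, and each gave the smallest exact sign-flip permutation p, 0.0312. The 3 features of Slc16a1, however, did not move alike.

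Under neuron treatment its features 21182, 32971 and 43374 stood at -1.95, -0.97 and -0.56 SD units, and each fell (adjusted p of 3.5e-07, 9.9e-06 and 0.00068 in limma's fit over 41230 features). With Y27631 they stood at -2.34, -0.10 and -0.25, and only feature 21182 passed (adjusted p = 1.0e-05, against 0.63 and 0.15). Without feature 21182 the gene stood at -0.18 with Y27631 (adjusted p = 0.21), so that 1 feature carried the call there, whereas all 3 went down under neuron treatment.

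**Figure D2:**
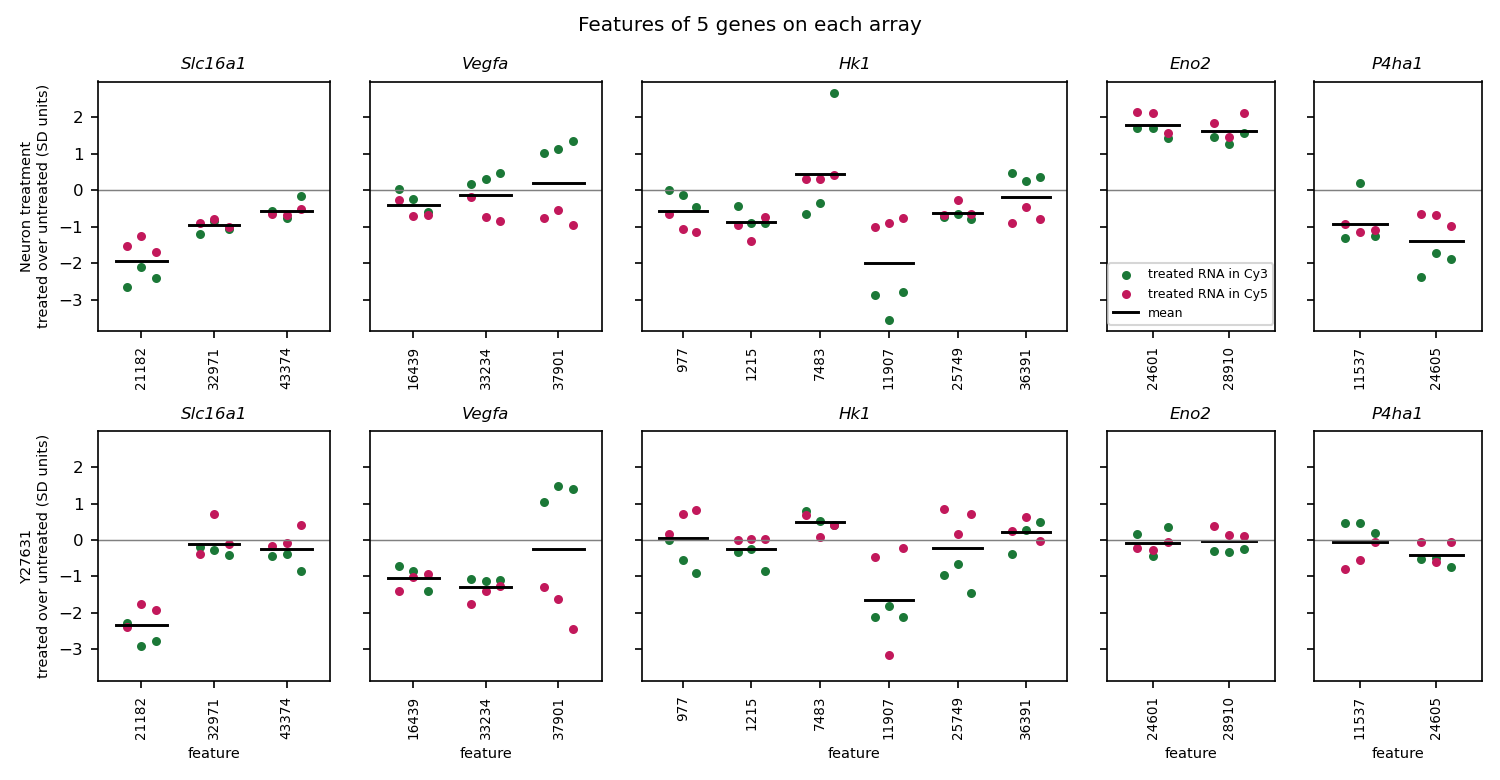
Treated over untreated (SD units, y axis) of each array feature of Slc16a1, Vegfa, Hk1, Eno2 and P4ha1 (x axis, feature numbers), under neuron treatment (top) and with Y27631 (bottom). Points are arrays coloured by the dye of the treated RNA and bars are means of 6 arrays. Feature 21182 of Slc16a1 lies near -2 in both experiments, while its other features lie near 0 with Y27631.

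Basigin (Bsg), the partner protein that takes MCT1 and MCT4 to the cell surface, was listed among the other genes of the pathway. It rose on 6 of 6 arrays under neuron treatment, with a mean of 1.94 ± 0.75 (SD, n = 6 arrays, adjusted p = 8.6e-07). It rose on 6 of 6 arrays with Y27631 as well, to 1.03 ± 0.80 (SD, n = 6 arrays, adjusted p = 0.00051), with a low mean of 0.36 where the treated RNA was in Cy3 and a high mean of 1.70 in Cy5.

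Neither glucose transporter was called with the same sign on all 6 arrays. Slc2a1 (GLUT1), the main basal glucose transporter of glia and endothelium, stood at -0.15 under neuron treatment (adjusted p = 0.16), with means of 0.29 in Cy3 and -0.59 in Cy5. With Y27631 its mean of 0.50 passed limma's test (adjusted p = 0.014), but it was 1.62 with the treated RNA in Cy3 and -0.62 in Cy5, and with no dye term it was not called. Slc2a3 (GLUT3), the transporter known from neurons, stood at -0.05 and 0.00 and passed in neither experiment, but its features went apart. Under neuron treatment feature 10425 of Slc2a3 fell to -0.77 on all 6 arrays (adjusted p = 0.00012) and feature 18088 rose to 0.43 (adjusted p = 0.0075). With Y27631 feature 9738 fell to -0.50 (adjusted p = 0.0057) and feature 10425 rose to 0.35 (adjusted p = 0.048), so the means near 0 do not describe its features.

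At the entry of glycolysis, Hk1, the hexokinase of brain and most tissues, fell under neuron treatment to -0.64 ± 0.18 (SD, n = 6 arrays, adjusted p = 0.00017), with arrays from -0.89 to -0.32. Its 6 features spread from -1.99 (feature 11907) to 0.45 (feature 7483), 4 of them fell and the other 2 did not pass. With Y27631 the gene stood at -0.23 (adjusted p = 0.12), and its features passed in opposite directions. Feature 11907 fell there too, to -1.65 (adjusted p = 0.0052), and feature 7483 rose to 0.48 on all 6 arrays (adjusted p = 0.012). Hk2, the inducible hexokinase, rose under neuron treatment to 0.50 (adjusted p = 0.0013), with means of 0.96 in Cy3 and 0.05 in Cy5, and did not pass with Y27631 (0.77 in Cy3 and -1.37 in Cy5).

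Of the phosphofructokinases, Pfkl, the liver-type subunit, fell furthest under neuron treatment. Its 1 feature ran from -1.30 to -0.68 with a median of -1.08, below 0 on all 6 arrays, and the means were alike in Cy3 (-0.94) and Cy5 (-1.15). The mean was -1.04 ± 0.23 (SD, n = 6 arrays, adjusted p = 1.1e-05), with an exact sign-flip permutation p of 0.0312. With Y27631 Pfkl ran from -0.27 to 0.72 with a median of 0.40, high in Cy3 (mean 0.67) and near 0 in Cy5 (mean -0.08). That mean of 0.29 ± 0.45 (SD, n = 6 arrays) passed with adjusted p = 0.038 and lost the call when any 1 of replicates 2 to 6 was left out, so it is not a firm rise.

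The platelet-type subunit Pfkp fell in both experiments on all 6 arrays, to -0.61 ± 0.17 under neuron treatment (adjusted p = 9.1e-05) and to -0.65 ± 0.19 with Y27631 (adjusted p = 0.00073). Its features parted under neuron treatment, where feature 33943 fell to -1.40, feature 22911 to -0.51 with means of opposite sign (0.15 in Cy3 and -1.17 in Cy5), and feature 3949 stood at 0.07 (adjusted p = 0.56). With Y27631 features 3949 and 33943 fell to -0.79 and -0.89 and feature 22911 did not pass. The gene value of Pfkfb3, which makes the activator of phosphofructokinase, fell on all 6 arrays of each as well, to -0.36 (adjusted p = 0.0032) and -0.42 (adjusted p = 0.0064). Its features parted, and feature 42444 passed in neither experiment (adjusted p = 0.35 and 0.19 in limma). With Y27631 feature 26017 of Pfkfb3 stood at -1.33 in Cy3 and 0.26 in Cy5. The muscle-type subunit Pfkm rose in both, to 0.30 (adjusted p = 0.013) and 0.71 (adjusted p = 0.011), on 5 of 6 arrays each time. By the gene values Pfkm was called higher and Pfkl and Pfkp lower under neuron treatment, and Pfkm higher and Pfkp lower with Y27631. The calls of Pfkm did not hold with no dye term (adjusted p = 0.07 and 0.053 in limma).

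In lower glycolysis, from aldolase to pyruvate kinase, Eno2 stood apart. It encodes gamma enolase, known as the enolase of neurons and also found in oligodendroglial cells. Under neuron treatment its arrays ran from 1.49 to 1.99 SD units with a median of 1.68, all far above 0, and its 2 features stood at 1.78 and 1.61. The mean was 1.70 ± 0.21 (SD, n = 6 arrays, adjusted p = 1.2e-07, exact sign-flip permutation p = 0.0312), rank 322 from the top. With Y27631 its arrays ran from -0.39 to 0.08 with a median of -0.02, and the mean of -0.06 ± 0.17 did not pass (adjusted p = 0.66).

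Eno2 is also a neuronal gene, and the neuron markers were mixed. Of 11 measured neuron markers 7 rose and 2 fell under neuron treatment, or 63.6% and 18.2%, against 27.6% and 36.7% of all genes. They ranged from -0.82 for Map2, a dendritic protein, to 3.08 for Nefl, the light neurofilament subunit. Slc17a7 (vesicular glutamate transporter) rose to 1.73 and Gad1 (GABA synthesis) to 1.03, whereas Rbfox3, the nuclear antigen NeuN, fell to -0.17 and Stmn2 stood at -0.09. Tubb3 and Gad2, counted among the 7, were above 0 on 3 of 6 arrays, Tubb3 with 2.17 in Cy3 and -0.12 in Cy5. With Y27631, where Eno2 did not pass, 1 neuron marker rose and 6 fell, Nefl to -2.58. These were 9.09% and 54.5%, against 20.5% and 19.5% of all genes. Only 2 of the 6 falls, those of Nefl and Nefm, were seen on all 6 arrays. Tubb3 (1.04 in Cy3 and -2.88 in Cy5), Snap25, Stmn2 and Syt1 had orientations of opposite sign. So had Map2, the 1 marker that rose (-0.57 and 1.09). As ratios hold no levels, it cannot be read whether the markers were near background, and their part in the Eno2 result was not tested.

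Aldoa, the main aldolase, fell under neuron treatment to -0.91 ± 0.46 (SD, n = 6 arrays, adjusted p = 0.00076), below 0 on all 6 arrays, with features at -0.94 and -0.87. With Y27631 it stood at -0.11 (adjusted p = 0.63). The other members of lower glycolysis, Tpi1, Gapdh, Pgk1, Pgam1 and Pkm, followed the dye. In both experiments each had a positive mean with the treated RNA in Cy3 and a negative mean in Cy5, although feature 31199 of Pkm went the other way under neuron treatment (-0.63 and 0.17).

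Pgk1, phosphoglycerate kinase, stood at 1.03 in Cy3 and -1.11 in Cy5 under neuron treatment, and at 1.07 and -1.44 with Y27631. Gapdh, glyceraldehyde phosphate dehydrogenase and a common reference gene, stood at 0.58 and -1.38, and at 0.76 and -2.01. The calls of Gapdh as lower in both experiments (means -0.40 and -0.62, adjusted p = 0.0023 and 0.010) and of Pgam1 as lower under neuron treatment (-0.47) and higher with Y27631 (0.37) therefore rest on unequal arms of opposite sign, and none of them held with no dye term.

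The dye coefficient itself, reported after its values were seen, passed with Cy3 above Cy5 in 12 of 33 members under neuron treatment, or 36.4%, against 30.2% of all genes, and in 15 of 33 with Y27631, or 45.5%, against 29.9%. The orientations had means of opposite sign in 16 members (all genes 45.2%) and 23 members (all genes 57.3%). Consecutive steps of the pathway shared the pattern, from Tpi1 through Gapdh and Pgk1 to Pgam1, and so did Pkm beyond the enolases.

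**Figure D3:**
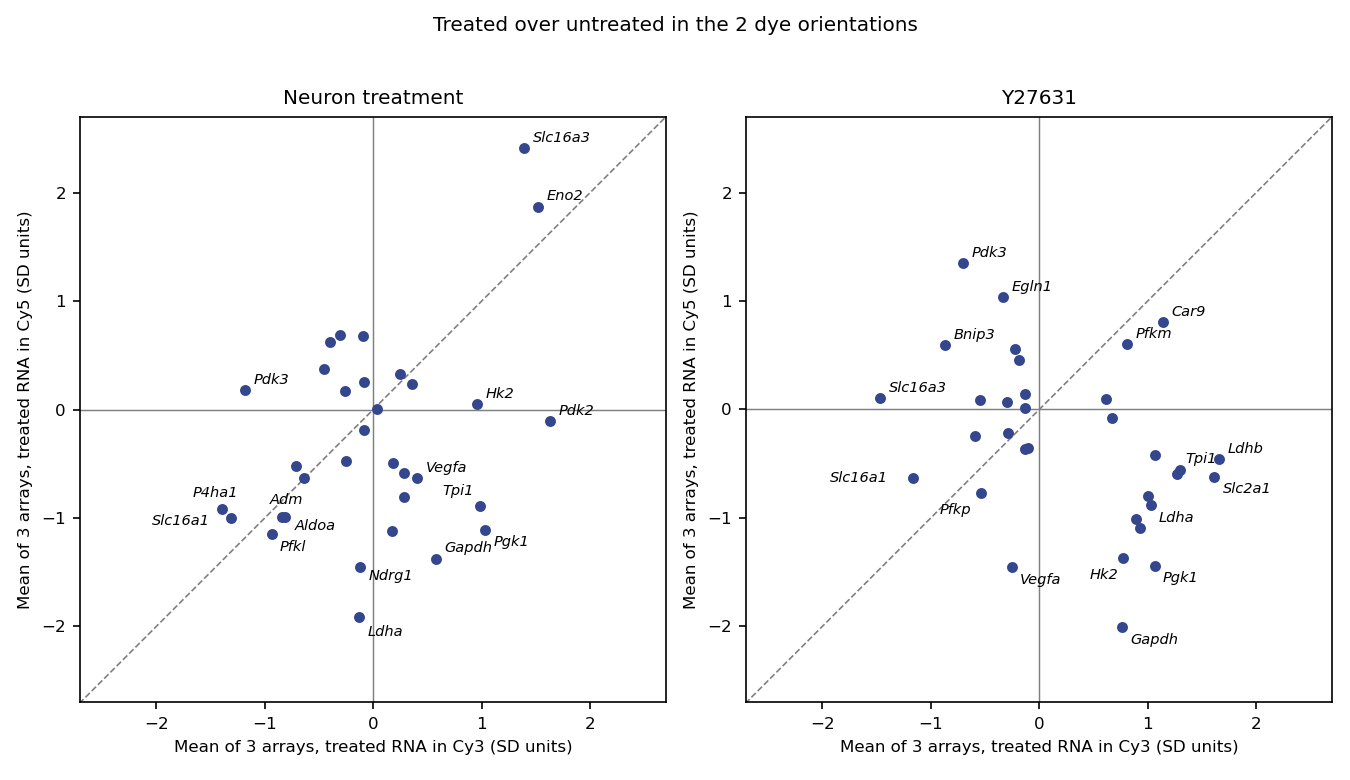
Mean of the 3 arrays with the treated RNA in Cy3 (x axis) against the mean of the 3 arrays with it in Cy5 (y axis), both treated over untreated in SD units, for the 33 measured members (points, some named). Points on the dashed diagonal have equal means in both orientations, and points to the lower right and upper left of the centre lines have opposite signs, as 16 members have under neuron treatment and 23 with Y27631.

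Ldha, the lactate dehydrogenase subunit of glycolytic tissue, fell under neuron treatment on 5 of 6 arrays. Its arrays ran from -2.18 to 0.05 with a median of -0.98, close to 0 with the treated RNA in Cy3 (mean -0.13) and low in Cy5 (mean -1.91). The mean was -1.02 ± 1.00 (SD, n = 6 arrays), with an adjusted p of 1.0e-05 in limma's fit with the dye term and 0.057 with no dye term, and the exact sign-flip permutation test gave p = 0.0625. Its features agreed in this, at -0.12 and -1.62 for feature 18076 and at -0.14 and -2.20 for feature 19374, so the fall was seen in a single dye orientation.

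With Y27631 Ldha ran from -1.54 to 1.12 with a median of 0.32, all 3 arrays in Cy3 above 0 and all 3 in Cy5 below, and the mean of 0.07 ± 1.13 did not pass (adjusted p = 0.74). Ldhb, the subunit of oxidative tissue, showed the same split, at 0.28 and -0.81 under neuron treatment, where it did not pass, and at 1.66 and -0.46 with Y27631, where the mean of 0.60 passed with the dye term only (adjusted p = 0.0046).

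The pyruvate dehydrogenase kinases, which switch off the entry of pyruvate into the mitochondria, gave no common direction. Under neuron treatment Pdk2 rose to 0.76 (adjusted p = 9.4e-05), with a mean of 1.63 in Cy3 and -0.10 in Cy5, and Pdk3 fell to -0.50 (adjusted p = 0.00041), with -1.18 in Cy3 and 0.18 in Cy5. Pdk1, itself known as a HIF-1 target, and Pdk4, the kinase of fasting and fat use, stood at 0.08 and 0.02 and did not pass, though the features of Pdk1 passed in opposite directions (-0.24 and 0.40). With Y27631 Pdk3 alone of the 4 passed, at 0.33 (adjusted p = 0.023) and again with orientations of opposite sign (-0.70 and 1.35).

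Of the genes that sense oxygen, Hif1a, the regulated subunit of HIF-1, stood at 0.19 under neuron treatment and 0.17 with Y27631 and passed in neither (adjusted p = 0.33 and 0.31), with negative means in Cy3 (-0.30 and -0.22) and positive ones in Cy5 (0.68 and 0.56). Egln1, the main prolyl hydroxylase of HIF-1, passed as higher in both, at 0.29 (adjusted p = 0.0086) and 0.35 (adjusted p = 0.013), with negative means in Cy3 and positive ones in Cy5 each time. Egln3, a hydroxylase that HIF-1 induces, stood at -0.04 under neuron treatment, with -0.46 in Cy3 and 0.38 in Cy5. With Y27631 it rose to 0.36 (adjusted p = 0.012), above 0 on all 6 arrays, though the lowest was 0.02.

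Of the 7 genes known to be induced by hypoxia, 1 rose, 3 fell and 3 did not pass under neuron treatment. The shares that rose and fell, 14.3% and 42.9%, stood beside 27.6% and 36.7% of all genes. P4ha1, a collagen prolyl hydroxylase subunit, ran from -1.85 to -0.76 with a median of -0.98, below 0 on every array. The mean was -1.16 ± 0.45 (SD, n = 6 arrays, adjusted p = 6.5e-05, exact sign-flip permutation p = 0.0312), and its features stood at -0.92 and -1.39. With Y27631 P4ha1 ran from -0.58 to -0.01 with a median of -0.16, and the mean of -0.23 ± 0.24 did not pass (adjusted p = 0.10), although no array was above 0.

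Adm, the vasodilator peptide adrenomedullin, fell under neuron treatment to -0.91 ± 0.20 (SD, n = 6 arrays, adjusted p = 1.9e-05) on all 6 arrays, from -1.14 to -0.67. Ndrg1, a protein of differentiation and of peripheral myelin, fell to -0.79 (adjusted p = 1.6e-05), with means of -0.12 in Cy3 and -1.45 in Cy5, and did not hold with no dye term. Car9, a cell surface carbonic anhydrase, rose slightly to 0.28 (adjusted p = 0.034), on 5 of 6 arrays. The call of Car9 did not hold with no dye term (adjusted p = 0.11 in limma). Vegfa, the mitophagy gene Bnip3 and P4ha2 stood at -0.12, 0.11 and -0.14 and did not pass. Vegfa (0.41 in Cy3 and -0.64 in Cy5) and Bnip3 (-0.40 and 0.62) had orientations of opposite sign.

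With Y27631, 1 of these 7 genes rose, 1 fell and 5 did not pass. The shares that rose and fell, 14.3% each, stood beside 20.5% and 19.5% of all genes. Car9 ran from 0.59 to 1.38 with a median of 0.94, all 6 arrays above 0, and the mean was 0.97 ± 0.28 (SD, n = 6 arrays, adjusted p = 0.00019). Vegfa, the main growth factor of blood vessels, ran from -1.55 to -0.16 with a median of -0.85, all below 0 and lowest in Cy5 (mean -1.46, against -0.26 in Cy3). Its mean was -0.86 ± 0.66 (SD, n = 6 arrays, adjusted p = 0.00014), and both Car9 and Vegfa gave the exact sign-flip permutation p of 0.0312.

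The features of Vegfa parted with Y27631. Features 16439 and 33234 fell to -1.05 and -1.28 (adjusted p = 0.00035 and 4.9e-05), with close means in the 2 orientations (-0.98 and -1.11, and -1.09 and -1.48). Feature 37901 stood at 1.30 in Cy3 and -1.78 in Cy5 and did not pass (adjusted p = 0.28). The wide spread of the gene value thus came with 1 of its 3 features.

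The difference between the treatments was tested on all 12 arrays. The untreated RNA may have been shared between the experiments, and their scales may differ. Neuron treatment stood higher than Y27631 in 5 members, or 15.2%, against 22.5% of all genes, and lower in 13, or 39.4%, against 27.6%. Together these were 54.5% of members, near the 50.2% of all genes. With no dye term Eno2 and Slc16a3 alone of the 33 remained higher (6.06%, against 9.69%) and Pfkl, Car9, Adm and P4ha1 lower (12.1%, against 11.1%), so that the other 12 calls, Ldha and Vegfa among them, ended. Slc16a3 differed most, by 2.58 ± 0.19 SD units (SE, adjusted p = 2.5e-07), followed by Eno2, by 1.75 ± 0.10 (SE, adjusted p = 4.3e-08).

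Pfkl was lower under neuron treatment than with Y27631 by -1.34 ± 0.13 (SE, adjusted p = 2.8e-06), Adm by -1.24 ± 0.21 (SE, adjusted p = 0.00032), Ldha by -1.09 ± 0.19 (SE, adjusted p = 0.00039) and P4ha1 by -0.93 ± 0.17 (SE, adjusted p = 0.00072). Vegfa, which fell with Y27631 and did not pass under neuron treatment, was higher by 0.74 ± 0.10 (SE, adjusted p = 6.3e-05). No difference was detected for Slc16a1 (-0.26 ± 0.12, SE, adjusted p = 0.098), Pfkp (0.04 ± 0.11, SE) and Pfkfb3 (0.05 ± 0.11, SE).

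**Figure D4:**
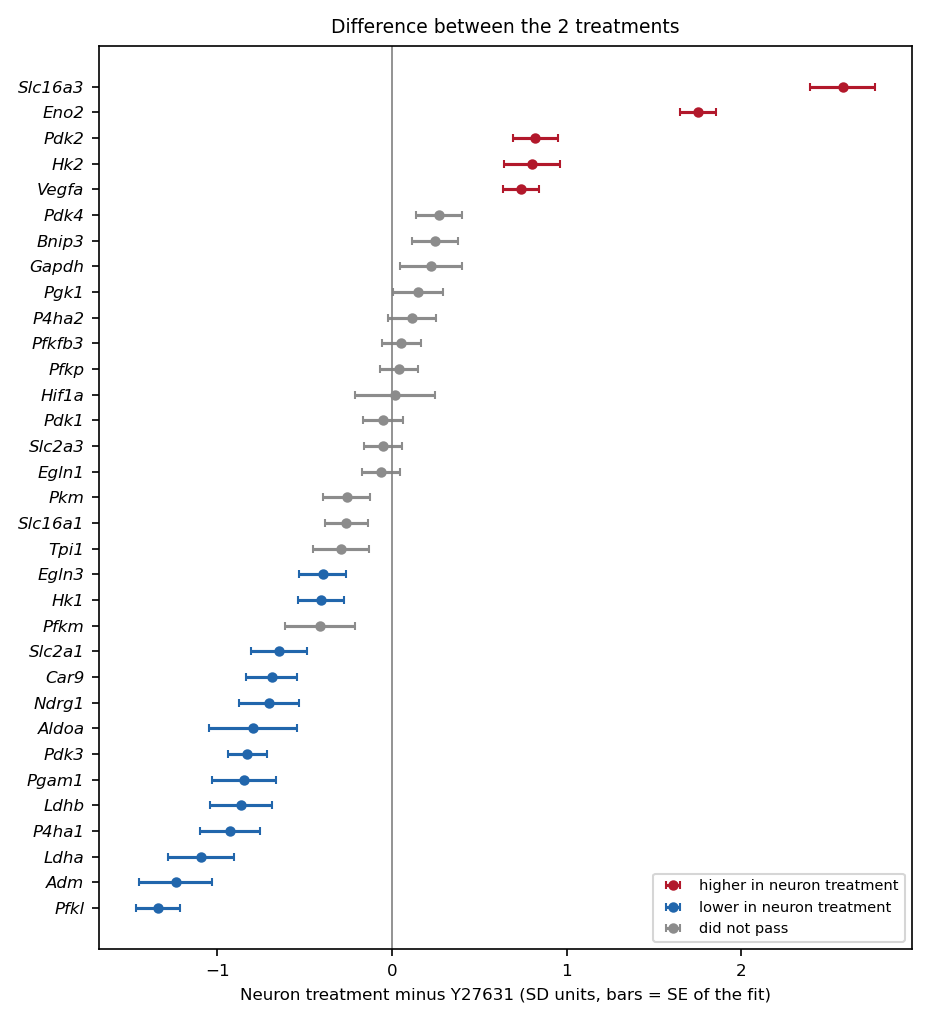
Neuron treatment minus Y27631 (SD units, x axis) for the 33 measured members (rows), with bars for the SE of the fit on 12 arrays and colours for members that passed at an adjusted p of 0.05. Slc16a3 (2.58) and Eno2 (1.75) lie far to the right, and Pfkl (-1.34) and Adm (-1.24) farthest to the left.

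Among 72 measured genes listed beside the members, those of glycolysis and lactate numbered 19, of which 3 rose and 4 fell under neuron treatment and 5 rose and 2 fell with Y27631. These were 15.8% and 21.1%, and 26.3% and 10.5%, beside 27.6%, 36.7%, 20.5% and 19.5% of all genes. Apart from Bsg, Gapdhs, the glyceraldehyde phosphate dehydrogenase of sperm, rose to 2.65 ± 1.15 under neuron treatment (SD, n = 6 arrays, adjusted p = 6.1e-08) and Pgam2, the muscle mutase, fell to -0.62. With Y27631 Aldoc, the aldolase of brain, rose to 1.42 ± 0.23 (SD, n = 6 arrays, adjusted p = 4.0e-05) and Tigar, which lowers the activator of phosphofructokinase, fell to -0.70. These 4 genes kept 1 sign on all 6 arrays.

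Of 9 genes of pyruvate entry, 2 rose and 4 fell under neuron treatment and 1 rose and 2 fell with Y27631. These were 22.2% and 44.4%, and 11.1% and 22.2%, beside 27.6% and 36.7%, and 20.5% and 19.5% of all genes. The list holds too few genes to read these shares as a result. Pdha1, the catalytic subunit of pyruvate dehydrogenase, rose to 0.76 ± 0.47 under neuron treatment and fell to -0.90 ± 0.58 with Y27631 (SD, n = 6 arrays each, adjusted p = 8.6e-05 and 0.00014), with 1 sign on all 6 arrays of each. Pcx, which makes oxaloacetate from pyruvate, fell to -0.84 and Mpc1, part of the mitochondrial pyruvate carrier, to -0.56 under neuron treatment. Dld, a subunit of the dehydrogenase complex, fell to -1.19 with Y27631 (adjusted p = 2.8e-05).

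Of 28 further hypoxia factors and targets, 8 rose and 12 fell under neuron treatment, with a median of -0.15, and 6 rose and 5 fell with Y27631, with a median of -0.04. These shares, 28.6% and 42.9%, and 21.4% and 17.9%, were near those of all genes and are no result about the list. Under neuron treatment Tfrc, the transferrin receptor, fell to -1.98 (adjusted p = 3.8e-07) and Stc1, the hormone stanniocalcin, to -1.28 (adjusted p = 1.9e-06), while Bnip3l, a mitophagy receptor, rose to 0.89 (adjusted p = 1.2e-05). With Y27631 Plod2, a lysyl hydroxylase of collagen, rose to 1.62 (adjusted p = 8.6e-05) and Loxl2, which crosslinks collagen, fell to -1.30 (adjusted p = 9.7e-05). Each of these 5 genes kept 1 sign on all 6 arrays.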

How the data were processed

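The authors amplified RNA by PCR, hybridised it to Agilent 2-colour mouse whole genome arrays, took values for saturated features from a low gain scan and applied loess. The deposited table holds scores, namely log ratios of Cy3 and Cy5 standardized to an SD of 1 per array, and no intensities, so signal over background is unknown. All signs were turned here. Of 44290 features, 3060 had no value, 47 with several genes were not used, and 31906 of 32089 annotated probes matched a RefSeq gene.

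Each experiment was fitted in limma 3.58.1 (R 4.3.3) with an intercept and a dye term, and adjusted over 19087 genes or 41230 features. A gene rose or fell at an adjusted p under 0.05. The script was tested on simulated data. Errors after ± are SDs unless given as SE, and the number of arrays limits the precision. No pairing of the experiments by replicate number was detected (r of -0.033 to 0.082).

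The members, gene lists and tests were chosen with earlier results of these data known. Members at 1 SD unit or more that passed in either experiment, or with such a feature at 2 or more, are given in full, with up to 3 other genes per list and treatment by smallest adjusted p. Alternatives dropped the dye term, recentred or rescaled arrays, took the median of features, an unmoderated model, 1 orientation or all but 1 replicate number, filtered low values and changed thresholds.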

Additional observations from a re-analysis of the deposited data

Results flagged for a closer look

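A single array stood far from the other 5 of its group in 9 of 154 groups tested (gene values of members, and features of genes with 2 or more features), where chance gives about 1 in 20. Under neuron treatment these were Pfkp on replicate 1 (-0.93), feature 7483 of Hk1 on replicate 3 (2.67), feature 25749 of Hk1 on replicate 5 (-0.27), feature 2528 of Aldoa on replicate 5 (-2.15) and feature 11537 of P4ha1 on replicate 2 (0.20). With Y27631 they were Pfkm on replicate 2 (-0.24), Pfkp on replicate 4 (-0.29), Eno2 on replicate 5 (-0.39) and feature 32971 of Slc16a1 on replicate 2 (0.72).

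The response of 18 of 33 members differed between the treatments in limma's test of the difference on 12 arrays, or 54.5%, near the 50.2% of all genes, and with no dye term 2 were higher and 4 lower. Neuron treatment minus Y27631 was positive, in SD units, for Slc16a3 (2.58), Eno2 (1.75), Pdk2 (0.82), Hk2 (0.80) and Vegfa (0.74). It was negative for Pfkl (-1.34), Adm (-1.24), Ldha (-1.09), P4ha1 (-0.93), Ldhb (-0.86), Pgam1 (-0.84), Pdk3 (-0.83), Aldoa (-0.79), Ndrg1 (-0.70), Car9 (-0.69), Slc2a1 (-0.65), Hk1 (-0.41) and Egln3 (-0.40).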

How the results depend on the processing

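The dye term decided most counts. With no dye term, members higher and lower numbered 2 and 8 under neuron treatment, 1 and 2 with Y27631, and 2 and 4 in the difference of the treatments. With arrays of the treated RNA in Cy3 only, 16 members were higher with Y27631 and 11 passed at 1 SD unit. With arrays in Cy5 only, 6 were higher, 12 lower and 8 passed at 1 SD unit, the median of members moved to -0.49 (neuron treatment) and -0.35 (Y27631), and with Y27631 Pfkl (-0.081) and Slc16a3 (0.106) changed sign. Ldha under neuron treatment lost its call with no dye term and in Cy3 only (adjusted p = 0.057 and 0.34 in limma). With Y27631, members higher numbered 6 in the unmoderated model and 2 at an adjusted p under 0.01, and members at 1 SD unit numbered 3 after scaling by the median absolute deviation and 1 with the median of features. At 2 SD units none passed under neuron treatment, the highest being Slc16a3 at 1.90.

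Leaving out 1 replicate number at a time gave 6 to 8 members higher with Y27631 (6 without replicate 4) and 0 to 1 at 1 SD unit (1 without replicate 1 or 6). Members at 1 SD unit under neuron treatment numbered 4 to 7 (4 without replicate 2), and members lower with Y27631 6 to 9 (9 without replicate 3). Slc16a3, Eno2, Slc16a1, Pfkl and P4ha1 under neuron treatment kept their direction and call in each alternative run. With the replicate block, 5 members were higher and 13 lower in the difference, as without it. Of the 6 replicate numbers, 1 correlated best with its own number, so no pairing of the arrays was detected, though this cannot exclude one. Leaving out feature 21182 of Slc16a1, an alternative chosen after seeing the data, took away its call with Y27631 (-0.18, adjusted p = 0.21). The causes of these changes were not tested.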

Other observations

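Genes of the pentose phosphate pathway, glycogen and gluconeogenesis were also measured. Of 16, 3 rose and 8 fell under neuron treatment, with a median of -0.33 SD units, and 7 rose and 4 fell with Y27631, with a median of 0.24. These were 18.8% and 50%, and 43.8% and 25% of 16 genes, beside 27.6% and 36.7%, and 20.5% and 19.5% of all genes. Ppp1r3c, which takes protein phosphatase 1 to glycogen, fell under neuron treatment to -2.04 ± 0.77 (SD, n = 6 arrays, adjusted p = 1.9e-07 in limma). Fbp2, the fructose bisphosphatase of muscle, fell in both experiments on all 6 arrays, to -1.93 under neuron treatment (adjusted p = 1.2e-07) and to -1.27 with Y27631 (adjusted p = 3.7e-05). With Y27631 the means of Fbp2 were -2.28 in Cy3 and -0.26 in Cy5. Gys1, glycogen synthase, fell to -1.09 with Y27631 (adjusted p = 0.00027), with means of -0.40 with the treated RNA in Cy3 and -1.78 in Cy5.

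Markers of other glia were mixed, and those named were chosen after their values were seen. The astrocyte protein Gfap fell to -2.94 under neuron treatment and rose to 1.91 with Y27631, on all 6 arrays of each, and P2ry12, a receptor of microglia, fell to -1.42 and rose to 1.75. The microglial Tyrobp went the other way, at 0.83 and -0.62. Of 5 microglia markers measured, 1 rose, 1 fell and 3 (Aif1, Itgam and Cx3cr1) did not pass in each experiment. The shares that rose and fell were 20% each, beside 27.6% and 36.7%, and 20.5% and 19.5% of all genes. The astrocyte transporter Slc1a3 passed as higher in both, at 0.97 and 0.30. With Y27631, however, Slc1a3 was above 0 on 3 of 6 arrays, with means of -0.38 in Cy3 and 0.98 in Cy5. Of 5 astrocyte markers 1 rose and 3 fell under neuron treatment and 3 rose with Y27631. These were 20% and 60%, and 60%, beside 27.6% and 36.7%, and 20.5% of all genes. Their part in the values of the glycolysis and hypoxia genes was not tested.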
